A study of Homo sapiens with 12 samples.

Results

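ACTB, B2M, HPRT1, TBP, PPIA, GUSB, YWHAZ and EEF1A1 are 8 genes whose mRNAs are widely used as internal references in quantitative PCR. They were taken by symbol from the 25369 genes of a count table, and all 8 were present and passed the filter on low counts in each line. The libraries were poly(A)+ RNA-seq of RKO, a human colon carcinoma line, and of A549 and H460, both human lung carcinoma lines. Cells of each line were held in normoxia or exposed to hypoxia, 1% O2 over 24 h, with 2 replicate libraries in each of the 6 groups. RKO and A549 cells grew in DMEM and H460 cells in RPMI, with fetal bovine serum and antibiotics in all groups, so medium and line cannot be told apart for H460. No group carried a deletion, transgene or drug. Each line is a single established line, and the study describes its RNA-seq replicates as independent and biological.

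A reference mRNA serves to divide out differences in the amount of RNA loaded, which works only where its own share of the RNA stays the same across the conditions compared. Hypoxia is a demanding setting for such genes, because low oxygen stabilises HIF transcription factors, which bind hypoxia response elements and raise glycolytic genes, some of which are themselves classical references. The 8 genes serve separate processes. EEF1A1 delivers aminoacyl-tRNA to the ribosome, ACTB is cytoplasmic beta-actin, PPIA is the prolyl isomerase cyclophilin A and YWHAZ is the 14-3-3 zeta adaptor. B2M is the light chain of MHC class I, HPRT1 salvages purines, GUSB is the lysosomal beta-glucuronidase and TBP binds the TATA box at the start of transcription.

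Promoter sequences are given for EEF1A1 and GUSB because these were the genes called as changed by hypoxia, as described further on. The RefSeq promoter table (GRCh38.p14) held 6 of the 8 genes, with ACTB and YWHAZ not matched. In the 250 bases before the start site, the core of the hypoxia response element (ACGTG or GCGTG, either strand) was searched, and it is printed in capitals. EEF1A1 lies on the minus strand with this window at chr6:73521033-73521282, and GUSB on the minus strand at chr7:65982214-65982463.
EEF1A1: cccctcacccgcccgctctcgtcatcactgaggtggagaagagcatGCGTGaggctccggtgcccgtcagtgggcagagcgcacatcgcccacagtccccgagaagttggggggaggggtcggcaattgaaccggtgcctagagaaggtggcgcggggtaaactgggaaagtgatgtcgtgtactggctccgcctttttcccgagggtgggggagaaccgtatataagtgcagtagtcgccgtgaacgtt
GUSB: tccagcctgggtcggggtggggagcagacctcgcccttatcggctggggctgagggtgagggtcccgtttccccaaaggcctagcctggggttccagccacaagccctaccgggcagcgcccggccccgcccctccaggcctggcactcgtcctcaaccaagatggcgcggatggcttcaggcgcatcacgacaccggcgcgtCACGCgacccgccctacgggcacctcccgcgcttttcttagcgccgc
Each of these windows held 1 core, which began at position -204 in EEF1A1 and -47 in GUSB, counting the base before the start site as -1. All 6 matched genes held at least 1 core, and so did 43.2% of 35116 promoter windows of the same length. The core was thus also present at matched genes that were not called in any line (B2M, HPRT1, TBP and PPIA). A match to these letters is a description and not evidence of binding.

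The summed counts ranged from 27350424 to 41757584 per library, and the 8 genes took between 1.45% and 2.65% of them. CPM scales a count to the summed counts of its library, here with TMM factors, which adjust for the composition of the library, and RPKM further divides by gene length. TMM factors for the printed CPM were fitted on all 12 libraries, and those for the fold changes of each line on its 4 libraries. A ratio of printed CPM can therefore differ from the fold change given beside it. In H460 the factors fitted on 12 libraries were 1.03 and 1.05 in normoxia and 0.786 and 0.829 in hypoxia. In the fits per line, library size alone instead of TMM moved the median log2 fold change of all genes in H460 by -0.35, against 0.08 in RKO and -0.09 in A549. All values are shares of the counted RNA, and a change in total mRNA per cell, or fewer cells of a type against less RNA per cell, cannot be told apart in such bulk libraries. Of the epithelial keratins, KRT18 had a mean of at least 62.8 RPKM in every group, while KRT8 was at 3.84 RPKM in RKO normoxia. The colon marker CDX2 reached 6.94 RPKM in RKO normoxia and at most 0.027 in either lung line, whereas the lung marker NKX2-1 was near 0 in both lung lines in normoxia (0.0310 in A549 and 0.0146 in H460). NKX2-1 reached 1.14 RPKM in H460 hypoxia and was called higher there under both scalings. In normoxia the mean level of the epithelial marker EPCAM was 2.94 RPKM for RKO and 9.996 for A549, while H460 had 0.291 in normoxia and 0.0637 in hypoxia.

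The 8 genes spanned a wide range of abundance per length. In RKO normoxia the mean RPKM was 4997 for EEF1A1, 1339 for ACTB, 559.8 for PPIA, 443 for B2M, 403 for YWHAZ, 76.1 for HPRT1, 28.7 for GUSB and 15.3 for TBP. This order held in the other groups with 2 exceptions. ACTB led EEF1A1 in A549, where their replicates overlapped in hypoxia (2616 to 3216 RPKM for ACTB and 2301 to 2638 for EEF1A1). B2M stood above PPIA in RKO hypoxia and in both H460 groups, with overlapping replicates in H460 normoxia. HPRT1 and GUSB also overlapped in H460 normoxia, at 51.5 to 53.5 and 49.6 to 52.6 RPKM. The replicates of all other neighbours in the order did not overlap in any group. TBP, the rarest, was covered by 429 to 1082 counts per library.

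**Figure D1:**
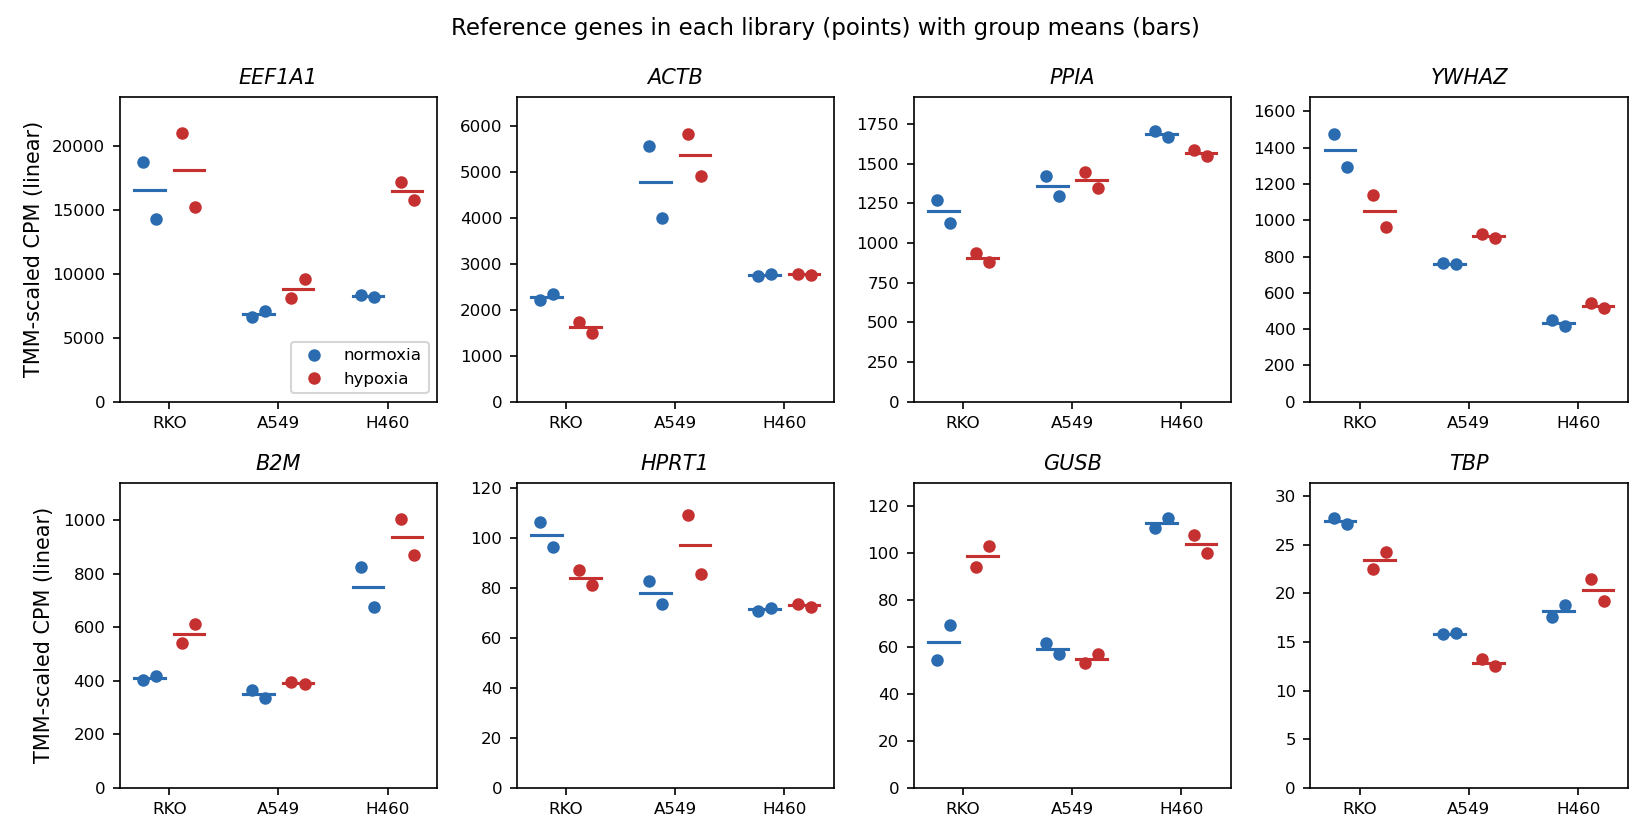
TMM-scaled CPM (linear axis from 0) of the 8 genes in the 12 libraries, by line, with normoxia in blue and hypoxia in red; each point is a library and each bar the mean of 2. EEF1A1 in H460 moved from a mean of 8281 to 16494 CPM, while most other genes differed more between lines than between oxygen conditions.

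To be called, a gene needed an adjusted p under 0.1 (Benjamini-Hochberg over all tested genes of the line) together with a change of more than 1.5-fold in edgeR's quasi-likelihood test. By this rule hypoxia changed 1 of the 8 genes in RKO (GUSB, higher), 0 in A549 and 1 in H460 (EEF1A1, higher), with TMM and with library size scaling alike. The background was 33.9% of tested genes called in RKO, 2.67% in A549 and 51.9% in H460 with TMM, and 33.1%, 1.35% and 55.6% with library size. For the 0 in A549, edgeR gave 0 of 8 at an unadjusted p under 0.05, and DESeq2 and limma also called 0. With the adjusted p alone, 5 genes passed in RKO, 0 in A549 and 3 in H460, beside 47.0%, 2.67% and 77.6% of all tested genes. No gene of the 8 was called in more than 1 line, and ACTB, B2M, HPRT1, TBP, PPIA and YWHAZ were called in none.

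EEF1A1 (chromosome 6, 74225472 to 74230755 on GRCh37, minus strand) showed the largest change of the 8 genes in any line with TMM, whereas with library size GUSB in RKO (1.61-fold) exceeded it. In H460 it was at 8358 and 8205 TMM CPM in normoxia and at 17183 and 15806 in hypoxia. Both hypoxia libraries lay far above both normoxia libraries, and the log2 fold change was 0.98 ± 0.12 (SE, n = 2 per group, edgeR adjusted p = 1.53e-05), or 1.97-fold. With library size scaling it was 0.62 ± 0.08, or 1.54-fold, which only just passed the fold threshold. In RKO the values were 18769.7 and 14309 in normoxia and 20998 and 15218 in hypoxia. These groups overlapped, and the log2 fold change of 0.07 ± 0.25 had the widest standard error of the 8 genes. In A549 it was at 6643 and 7128 in normoxia and at 8082 and 9627 in hypoxia, without overlap but with an adjusted p of 0.373 (edgeR, log2 fold change 0.35 ± 0.18). EEF1A1, like ACTB, PPIA and YWHAZ, has processed pseudogenes, and alignments under a mapping quality of 10 had been removed before counting, so the levels of these 4 genes carry an uncertainty from reads shared with such copies. The paralog EEF1A2, which encodes the isoform of muscle and neurons, rose as well in H460 with TMM (log2 fold change 0.93 ± 0.12) but was not called with library size.

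GUSB (chromosome 7, 65425671 to 65447301, minus strand) rose in RKO. Its TMM CPM was 54.5 and 69.5 in normoxia and 93.9 and 103 in hypoxia, and the groups did not overlap. The log2 fold change was 0.61 ± 0.17 (edgeR adjusted p = 0.0151), or 1.52-fold, close to the threshold of 1.5, and it was 0.69 ± 0.18 with library size scaling. A fit of all 12 libraries, scaled as the printed CPM, gave 0.67. The call was lost without RKO normoxia replicate 1 (0.45, adjusted p = 0.137) and without RKO hypoxia replicate 2 (0.55, below the fold threshold, adjusted p = 0.0213), and so rested on single libraries. In A549 GUSB was at 61.5 and 56.8 in normoxia and 53.0 and 57.0 in hypoxia, with overlap. In H460 it was at 110.6 and 114.9 in normoxia and 107.8 and 99.8 in hypoxia, so that hypoxia in RKO brought GUSB to a level near that of H460. Estimated changes were -0.12 ± 0.17 in A549 and -0.14 ± 0.09 in H460 on the log2 scale, and neither passed the test with TMM. With library size scaling the H460 value was -0.49 ± 0.08 (edgeR adjusted p = 0.000281), a change of less than 1.5-fold.

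ACTB (chromosome 7, 5566778 to 5570232, minus strand) was lower in hypoxia in RKO, with 2220.4 and 2341 TMM CPM in normoxia against 1741 and 1503 in hypoxia. The log2 fold change was -0.55 ± 0.18 (edgeR adjusted p = 0.0306), which passed the adjusted p but not the fold threshold. Without RKO hypoxia replicate 1 it was -0.61 and passed both (adjusted p = 0.0564). In A549 the replicates of ACTB themselves were far apart, at 5575 and 3999.7 in normoxia and 5828 and 4925 in hypoxia, so the groups overlapped. With TMM the spread of ACTB over the 4 H460 libraries was the smallest of any of the 8 genes in any line, with 2740.3 and 2774 in normoxia and 2777 and 2768 in hypoxia. The log2 fold change in H460 was -0.01 ± 0.10 with TMM but -0.36 ± 0.08 with library size (edgeR adjusted p = 0.00195). ACTG1, the other cytoplasmic actin, did not follow ACTB in H460, where it rose by a log2 fold change of 1.20 ± 0.11 and was called under both scalings.

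PPIA (chromosome 7, 44836240 to 44842716, plus strand) was lower in RKO hypoxia, at 1273 and 1126 TMM CPM in normoxia and 939 and 878 in hypoxia. The log2 fold change was -0.46 ± 0.17 (edgeR adjusted p = 0.0500), under the fold threshold. In A549 the values were 1426 and 1296 in normoxia and 1447 and 1350.3 in hypoxia, and overlapped, with a log2 fold change of 0.03 ± 0.17. In H460 they were 1708 and 1668 in normoxia and 1585 and 1550.4 in hypoxia. Although these did not overlap, the log2 fold change was small with TMM (-0.12 ± 0.10), whereas with library size it was -0.48 ± 0.08 (edgeR adjusted p = 0.000242).

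YWHAZ (chromosome 8, 101930803 to 101965623, minus strand) moved in opposite directions between lines. In RKO it was at 1476 and 1296 TMM CPM in normoxia and at 1140.4 and 961 in hypoxia, a log2 fold change of -0.46 ± 0.18 (edgeR adjusted p = 0.0599). In A549 it was at 762 and 759 in normoxia and 927 and 901 in hypoxia, an estimate of 0.25 ± 0.17 that did not pass. In H460 it was at 453 and 419.6 in normoxia and at 543 and 515 in hypoxia, a log2 fold change of 0.26 ± 0.09 (edgeR adjusted p = 0.0224). Neither the RKO nor the H460 change reached 1.5-fold, and the H460 estimate turned to -0.09 ± 0.08 with library size scaling. Of the other 14-3-3 genes, YWHAB was called lower in RKO and H460, YWHAE lower in RKO, YWHAH higher in H460 and SFN lower in H460, while YWHAG and YWHAQ were called in no line. YWHAB and YWHAE in RKO and YWHAH in H460 were not called with library size scaling.

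B2M (chromosome 15, 45003684 to 45010357, plus strand) had a positive estimate in all 3 lines with TMM. It was at 403 and 419 TMM CPM in RKO normoxia and 542 and 612 in hypoxia, a log2 fold change of 0.43 ± 0.16 (edgeR adjusted p = 0.0538). In H460 it was at 827 and 678 in normoxia and 1003 and 869 in hypoxia, a log2 fold change of 0.30 ± 0.12 (edgeR adjusted p = 0.0354). Both passed the adjusted p and neither reached 1.5-fold. In A549 it was at 366 and 335 in normoxia and 397 and 389 in hypoxia (0.15 ± 0.17, not passed). In H460 the sign of the estimate depended on the scaling, since library size gave -0.05 ± 0.10.

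HPRT1 (chromosome X, 133594174 to 133634698, plus strand) and TBP (chromosome 6, 170863420 to 170881958, plus strand) passed the adjusted p in no line with TMM. HPRT1 was at 106 and 96.3 TMM CPM in RKO normoxia and 87.2 and 81.0 in hypoxia, with a log2 fold change of -0.33 ± 0.15 just past the adjusted p limit (edgeR, 0.101). In A549 it was at 82.8 and 73.3 in normoxia and 109 and 85.4 in hypoxia. The A549 estimate was positive (0.30 ± 0.19), opposite to that of RKO. In H460 HPRT1 was at 70.7 and 72.0 in normoxia and 73.7 and 72.4 in hypoxia, a log2 fold change of 0.02 ± 0.08 with TMM and -0.34 ± 0.08 with library size (edgeR adjusted p = 0.00431). TBP was at 27.7 and 27.2 in RKO normoxia and 22.5 and 24.3 in hypoxia (-0.29 ± 0.17). In A549 TBP was at 15.8 and 15.9 in normoxia and 13.2 and 12.5 in hypoxia (-0.32 ± 0.22). In H460 it was at 17.6 and 18.8 in normoxia and 21.4 and 19.2 in hypoxia (0.14 ± 0.12). Its paralog TBPL1 was called in no line. The normoxia and hypoxia libraries of TBP did not overlap in any line, but with 2 libraries a group this is common, as the next counts show.

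Libraries of the 2 conditions did not overlap in TMM CPM for 7 of the 8 genes in RKO, 5 in A549 and 7 in H460, beside 70.5%, 49.9% and 86.4% of all tested genes. For RKO, A549 and H460 the median log2 fold changes of the 8 genes were -0.31, 0.15 and 0.08, where the medians of all tested genes were 0.01, -0.01 and -0.04. With library size the H460 median of the 8 was -0.27 and that of all genes -0.39. The split of signs in H460 moved with the scaling as well, with 5 of 8 estimates positive under TMM and 1 of 8 (EEF1A1) under library size.

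**Figure D2:**
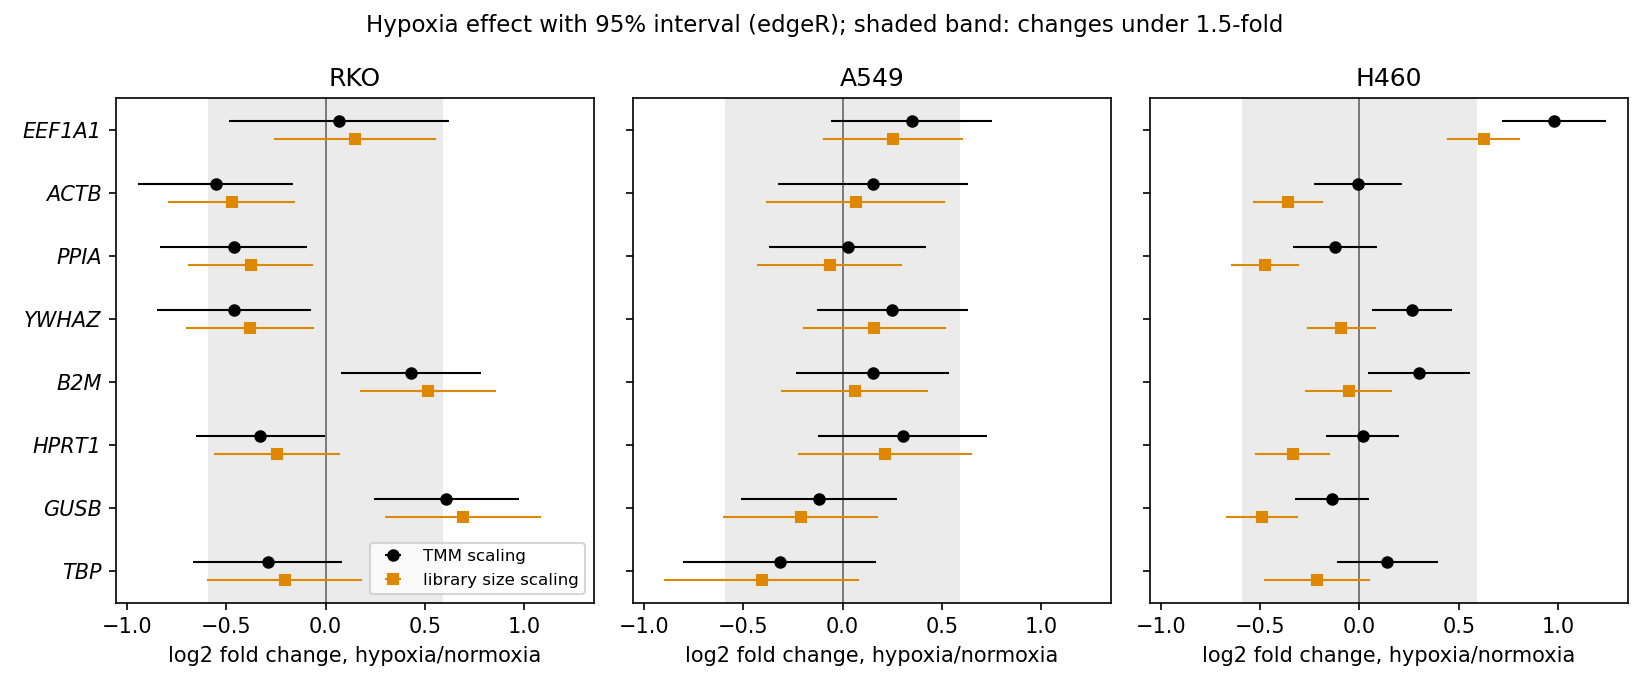
Log2 fold change of hypoxia against normoxia with its 95% interval (edgeR, 2 libraries per group) for each gene and line, with TMM scaling as black circles and library size scaling as orange squares; the grey band holds changes under 1.5-fold. In H460 all library size estimates lie about 0.35 to the left of the TMM estimates, and EEF1A1 is the gene outside the band under TMM.

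A failed test does not show that a gene held its level, so the 95% interval of each change was set against 1.5-fold in either direction (0.58 on the log2 scale). In H460, where replicates were closest, 7 of the 8 intervals lay inside these limits with TMM, all but that of EEF1A1, and 5 lay inside with library size. In A549 the intervals of B2M, PPIA and GUSB lay inside with TMM, making 3 of 8, and 4 did with library size. In RKO 0 of 8 lay inside with TMM and 2 (HPRT1 and EEF1A1) with library size. Over all tested genes 21.9% of intervals lay inside in RKO, 23.2% in A549 and 25.4% in H460 with TMM. None of the 8 genes had an interval inside the limits in all 3 lines, where 4.62% of the 11873 genes tested in each line did.

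Whether hypoxia acted differently between lines was tested directly, as the interaction of line and oxygen in a joint edgeR fit of the 12 libraries. The effect differed over the 3 lines for 5 of the 8 genes (adjusted p under 0.1), where 48.8% of 15595 genes passed. These were GUSB (adjusted p = 0.00903), YWHAZ (0.0216), EEF1A1 (0.0562), HPRT1 (0.0778) and ACTB (0.0981). Between RKO and A549 the effects of HPRT1, GUSB and YWHAZ differed, 3 of 8 beside 14.6% of all genes. Between RKO and H460 those of GUSB, YWHAZ and EEF1A1 differed, 3 of 8 beside 37.6%. Between A549 and H460 none passed in edgeR, beside 36.0%, and 1 (EEF1A1) had an unadjusted p under 0.05. The difference was largest for EEF1A1 between RKO and H460, at -0.86 ± 0.28 on the log2 scale, and GUSB differed by 0.77 ± 0.20 from A549 and by 0.79 ± 0.20 from H460.

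Differences between lines in normoxia were larger than most effects of hypoxia. In the same joint fit, with the thresholds of adjusted p and of 1.5-fold, 4 of the 8 genes were called for RKO against A549 (60.2% of all genes), 5 for RKO against H460 (61.9%) and 4 for A549 against H460 (52.1%). YWHAZ was called in all 3 pairs, with the widest gap between RKO and H460 (log2 difference 1.67 ± 0.14, 3.18-fold higher in RKO). EEF1A1 was higher in RKO than in A549 by 1.26 ± 0.20 and than in H460 by 1.00 ± 0.20. ACTB was higher in A549 than in RKO (2.10-fold) and than in H460 (1.74-fold). B2M and GUSB were both higher in H460 than in RKO and A549, B2M by 1.83-fold and 2.15-fold and GUSB by 1.82-fold and 1.91-fold. TBP was higher in RKO than in A549 (1.73-fold) and H460 (1.51-fold). HPRT1 and PPIA were called in no pair, although HPRT1 differed by 1.42-fold (adjusted p = 0.00547) and PPIA by 1.41-fold (adjusted p = 0.00575) between RKO and H460.

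Over all 12 libraries, HPRT1 varied least and ACTB most. The SD of log2 TMM CPM was 0.22 for HPRT1, 0.31 for PPIA, 0.38 for TBP, 0.46 for GUSB, 0.55 for B2M, 0.60 for YWHAZ, 0.60 for EEF1A1 and 0.63 for ACTB. All 8 lay under the median of all 15595 genes (0.76), but 333 genes had a lower SD than HPRT1, and 40.1% of genes had a lower SD than ACTB. That median includes genes of low count. Among the 5070 genes with a mean of at least 50 TMM CPM, ranked from the lowest SD, GUSB ranked 1909 and B2M 2567. YWHAZ ranked 2878, EEF1A1 2882 and ACTB 3057. B2M, YWHAZ, EEF1A1 and ACTB thus lay past the middle of that list with TMM. Ranked by the SD with library size, GUSB stood at 1647, B2M at 1915, EEF1A1 at 2601, ACTB at 2884 and YWHAZ at 3181. B2M then lay before the middle. TBP had a mean under 50 TMM CPM and was not ranked. With library size scaling the SD was 0.31 for HPRT1, 0.27 for PPIA, 0.43 for TBP, 0.44 for GUSB, 0.47 for B2M, 0.68 for YWHAZ, 0.57 for EEF1A1 and 0.63 for ACTB. PPIA then had the lowest value and YWHAZ the highest, so the order at both ends depended on the scaling. From the lowest to the highest library, levels spanned 1.54-fold for HPRT1 and 3.88-fold for ACTB with TMM.

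Cell line was the main source of this spread. Of the sum of squares of log2 TMM CPM, line accounted for 50.8% in HPRT1 and up to 90.7% in YWHAZ, and with library size for 49.1% in PPIA and up to 96.0% in YWHAZ. Oxygen, taken as an effect common to the lines, accounted for 18.5% in EEF1A1, 9.55% in B2M, 6.87% in PPIA and at most 2.99% in the other 5 genes. With library size scaling these shares were 9.63% in EEF1A1, 3.68% in B2M and 35.7% in PPIA, and 11.3% in TBP, so the gene with the largest share of oxygen depended on the scaling. The part of line by oxygen was largest in HPRT1 (31.2%) and GUSB (18.2%), and that of replicates was largest in HPRT1 (17.7%). With library size the part of line by oxygen was larger in GUSB (36.2%) than in HPRT1 (16.1%). The small total spread of HPRT1 thus held opposite estimates in RKO and A549. Over all genes the median shares were 76.3% for line, 5.77% for oxygen, 6.01% for line by oxygen and 3.96% for replicates.

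**Figure D3:**
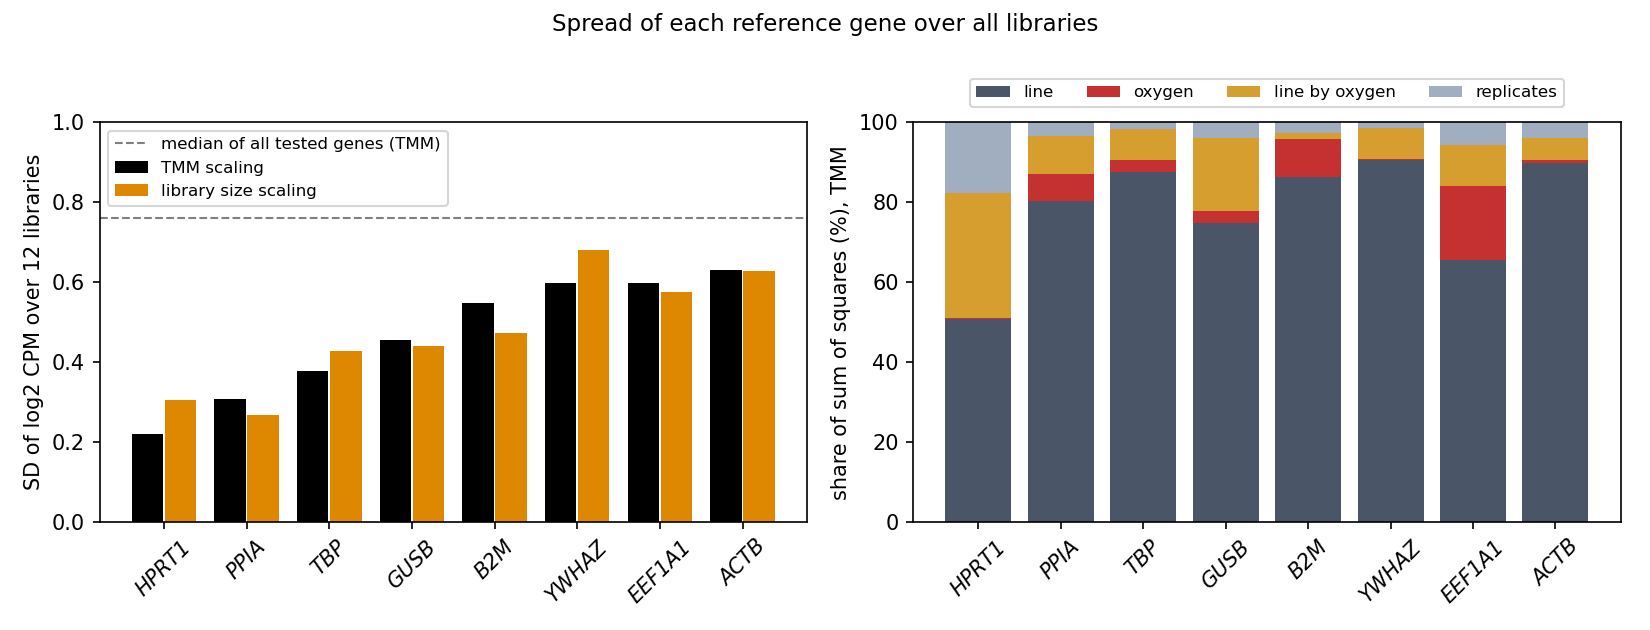
Left, the SD of log2 CPM of each gene over the 12 libraries with TMM (black) and library size scaling (orange), and the median SD of all tested genes with TMM (dashed line at 0.76); right, the share of the sum of squares due to line, oxygen, line by oxygen and replicates (in percent, TMM). HPRT1 and PPIA change places between scalings, and line takes at least 50.8% of the sum of squares in every gene with TMM.

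Within a line the ranking changed. With TMM, ACTB, the most variable gene over all libraries, had the lowest SD of the 8 within H460 (0.01, log2 CPM) and, after GUSB, the highest within RKO (0.30). EEF1A1 had the highest SD within H460 (0.58) and GUSB within RKO (0.42). PPIA had the lowest within A549 (0.07) and TBP within RKO (0.14). With library size the lowest SD belonged to other genes in every line, HPRT1 in RKO (0.15), B2M in A549 (0.07) and YWHAZ in H460 (0.06), and ACTB in H460 had an SD of 0.21.

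Ratios of 2 genes within a library are free of any scaling, so all 28 pairs of the 8 genes were read as log2 ratios of counts. In 18 pairs the ratio changed by over 1.5-fold with hypoxia in at least 1 line, and in 10 pairs it stayed under 1.5-fold in all 3. The share among pairs of all genes was not taken, so these counts only describe the 8 genes. The tightest pair over 12 libraries was B2M to GUSB, with an SD of 0.24, and the widest ACTB to EEF1A1, with an SD of 1.15. On the log2 scale the ratio of B2M to GUSB changed by -0.19 in RKO, and by 0.27 and 0.44 in A549 and H460. The ratio of HPRT1 to PPIA, the 2 genes with the lowest SD, changed by 0.13, 0.27 and 0.14 in RKO, A549 and H460. The ratio of ACTB to PPIA also stayed close within each line, with changes of -0.10, 0.14 and 0.11, although the lines differed (SD 0.53 over 12 libraries). In RKO the ratio of ACTB to GUSB fell by 1.17 on the log2 scale, the largest change of any pair in any line, and in H460 that of GUSB to EEF1A1 fell by 1.11. In A549 the largest change was that of TBP to EEF1A1 (-0.66).

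**Figure D4:**
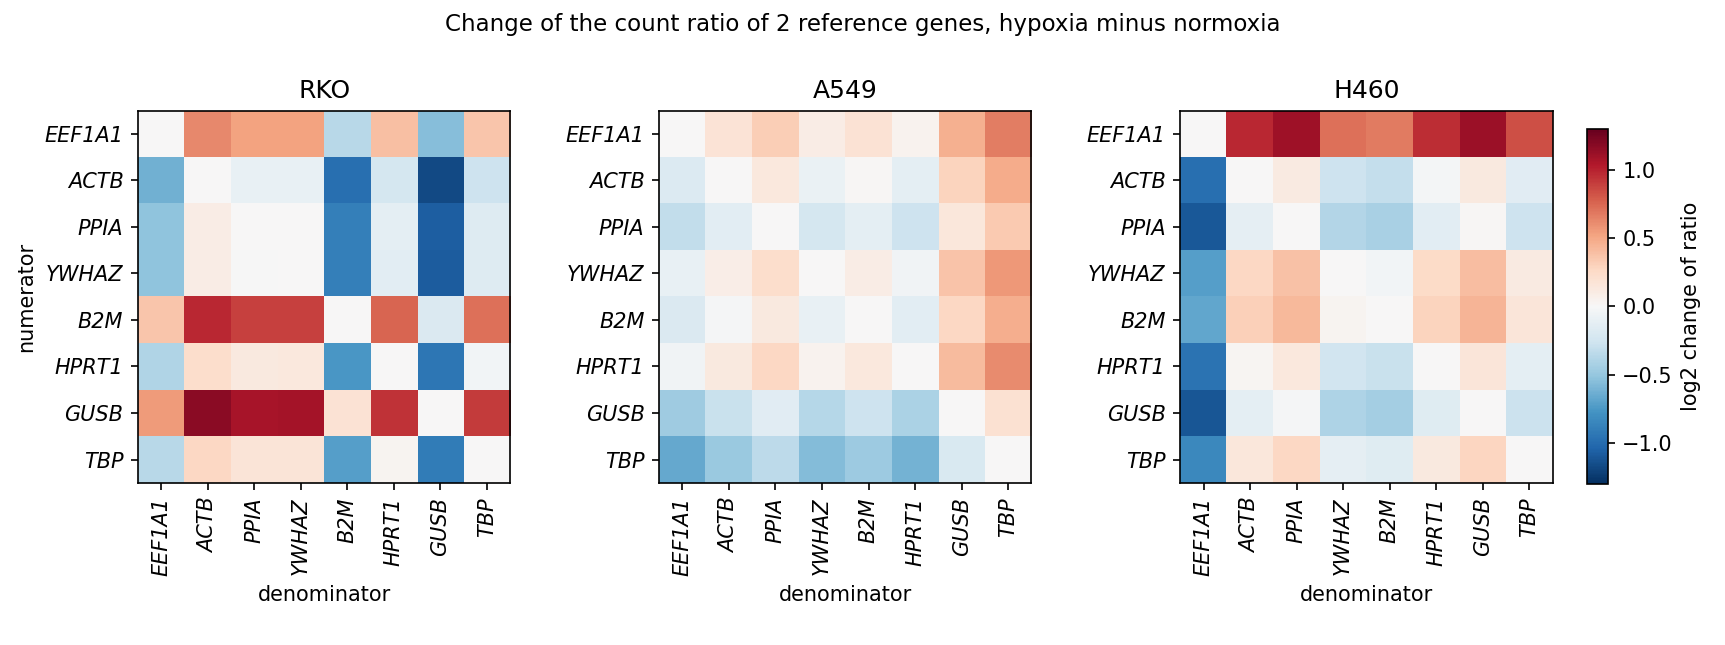
Change of the log2 ratio of counts of 2 genes (row over column) from normoxia to hypoxia, as the difference of the means of 2 libraries, in each line; red is a higher and blue a lower ratio in hypoxia. GUSB and B2M stand apart from most of the others in RKO (GUSB to YWHAZ 1.08), EEF1A1 stands apart from all others in H460 (GUSB to EEF1A1 -1.11), and changes in A549 reach -0.66 at most (TBP to EEF1A1).

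The mean SD of a gene's log2 ratios to the other 7 genes summarises how well it tracks them, with low values for close tracking. Over 12 libraries it was 0.55 for HPRT1, 0.57 for TBP, 0.61 for PPIA, 0.63 for GUSB, 0.68 for B2M, 0.70 for EEF1A1, 0.78 for YWHAZ and 0.89 for ACTB. Within RKO it was lowest for HPRT1 (0.25) and highest for GUSB (0.55). Within A549 it was lowest for B2M (0.16) and highest for TBP (0.30). Within H460 it was lowest for HPRT1 (0.17) and highest for EEF1A1 (0.53). HPRT1 therefore led over all libraries and in RKO and H460, while in A549 (0.23) B2M, PPIA, YWHAZ and GUSB had lower values. With TMM factors fitted on all 12 libraries, the geometric mean of all 8 genes changed by -0.06, 0.11 and 0.20 (RKO, A549, H460) on the log2 scale. With library size it changed by -0.04, 0.01 and -0.17. These TMM values therefore differ from a mean of the fold changes given above, whose factors were fitted per line.

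The consequence for a target gene was read for VEGFA, the angiogenic growth factor that hypoxia is known to induce, and HIF1A, the oxygen-regulated transcription factor subunit. Against TMM, the log2 fold change of VEGFA was 1.18 ± 0.18 for RKO, 1.62 ± 0.36 for A549 and 1.49 ± 0.09 for H460, and it was called in each line (in A549 not with library size). Divided by single references, its fold change in RKO ran from 1.48 with GUSB to 3.33 with ACTB. In A549 it ran from 2.30 with EEF1A1 to 3.64 with TBP, and in H460 from 1.42 with EEF1A1 to 3.08 with GUSB. GUSB thus gave the lowest value in RKO and the highest in H460. VEGFA was higher in hypoxia with every reference in every line. For HIF1A the change in H460 ran from -1.12 on the log2 scale with EEF1A1 to -0.01 with GUSB, where the TMM estimate was -0.14 ± 0.11 and not called. In RKO it ran from -2.37 with GUSB to -1.20 with ACTB, and in A549 from -1.52 with EEF1A1 to -0.86 with TBP. The TMM estimates were -1.75 ± 0.16 in RKO and -1.16 ± 0.23 in A549, and HIF1A was called lower in both lines under both scalings.

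**Figure D5:**
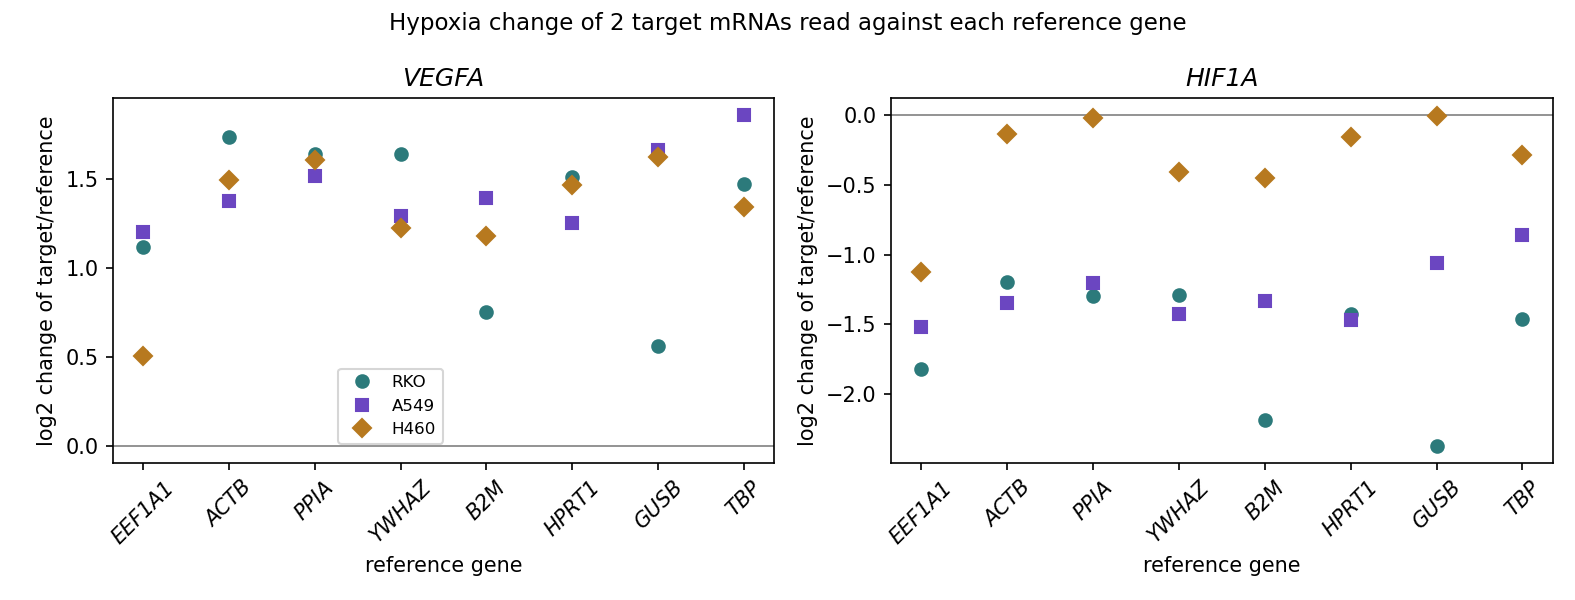
Log2 change of VEGFA (left) and HIF1A (right) from normoxia to hypoxia when divided by each of the 8 genes (x axis), as the difference of the means of 2 libraries, in RKO (circles), A549 (squares) and H460 (diamonds). VEGFA ranges from 0.51 with EEF1A1 in H460 to 1.86 with TBP in A549, and HIF1A in H460 reaches -1.12 with EEF1A1 against -0.01 with GUSB.

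A wider list of 40 other genes in use as references gives the setting. In RKO 4 were called higher and 6 lower, in A549 2 higher and 0 lower, and in H460 9 higher and 10 lower, with TMM. Over all tested genes 33.9%, 2.67% and 51.9% were called. Under library size the counts for the list were 4 and 6, 1 and 0, and 6 and 13. With TMM the median log2 fold changes of the list were -0.13, 0.05 and 0.38. Those of all tested genes were 0.01, -0.01 and -0.04. Medians of the list were not taken with library size, which in H460 lowered the median of all tested genes to -0.39. PGK1 and GPI, both enzymes of glycolysis, were called higher in all 3 lines with TMM, PGK1 by 1.85 ± 0.21, 1.86 ± 0.20 and 2.55 ± 0.12 on the log2 scale in RKO, A549 and H460, and GPI by 0.78 ± 0.19, 0.83 ± 0.19 and 1.34 ± 0.10. GPI in A549 was not called with library size. GAPDH, the most used glycolytic reference, rose in H460 (2.12 ± 0.13) and was not called in RKO (0.17 ± 0.22) or A549 (0.73 ± 0.19, edgeR adjusted p = 0.113). In total 17 of the 40 and 6 of the 8 genes described above were called in no line, beside 37.2% of the 11873 genes tested in each line.

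For each of the 8 genes, the 2 genes of most similar pattern were taken by Pearson's r of log2 TMM CPM over the 12 libraries, among 12423 genes with a mean count of at least 100. These r values describe libraries that share lines and are given with no test. EEF1A1 ran with RPL13A (r = 0.99) and EIF3L (0.99), a ribosomal protein gene and an initiation factor gene. YWHAZ ran with RAP1GDS1 (0.99) and DDX6 (0.98), ACTB with CYB5A (0.99) and HLX (0.97), and B2M with RAB3B (0.98) and SYTL4 (0.97). TBP ran with MTF1 and SETD7 (both 0.98), GUSB with ANKRD36 (0.98) and NPIPB3 (0.97), and PPIA with THOC7 and NXT2 (both 0.97). HPRT1, whose spread was small, had the weakest closest match, YWHAE (0.88), followed by CPOX (0.87). Among the 8 genes themselves r ran from -0.86 for ACTB and TBP to 0.90 for B2M and GUSB.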

How the data were processed

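The authors sequenced strand-specific poly(A)+ libraries. According to the submitters' processing notes and the methods of the study, reads were aligned with TopHat2 2.0.13 to GRCh37/hg19, filtered at a mapping quality of 10 and counted over exons with HTSeq 0.6.1. The authors deposited raw counts per gene and RPKM per gene, which used the library totals, and 0 columns of sample values were left unused. Here the counts of genes that exceeded 0.5 CPM in 2 or more libraries were TMM-scaled and tested by quasi-likelihood F tests (edgeR 4.0.16, R 4.3.3), per line on 4 libraries, and jointly on 12 for differences between lines. Log2 CPM used a prior count of 2. RPKM served for levels between genes and, with limma 3.58.1 on log2(RPKM + 0.1) and log2(RPKM + 1), as an alternative beside DESeq2 1.42.0, RLE factors, library size, other filters and thresholds, a joint fit, a replicate block and leaving out libraries. All edgeR steps were tested on simulated data. Genes were named by rule: the 8 members, fixed lists of other references, paralogs, targets and tissue markers, the 2 most similar genes of each member and the 10 genes of lowest SD with a mean CPM of at least 50. Of the list of other references, values are given for those called in all lines, GAPDH and PGK1. A result on interval width within the list of other references is not reported here. The members and lists were chosen with earlier results of these data known. Replicates of every group differed by more than counting error (chi-square per degree of freedom 9.60 to 72.0).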

Additional observations from a re-analysis of the deposited data

Results flagged for a closer look

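The effect of hypoxia differed between lines for 4 of the 8 genes in 6 contrasts of 2 lines, by the interaction test of the joint edgeR fit (adjusted p under 0.1 over all genes). For GUSB the log2 fold change in RKO exceeded that in A549 by 0.77 (adjusted p = 0.0310) and that in H460 by 0.79 (adjusted p = 0.00874). For YWHAZ the RKO value was lower, with a difference of -0.66 from A549 (adjusted p = 0.0560) and of -0.68 from H460 (adjusted p = 0.0201). HPRT1 differed by -0.58 between RKO and A549 (adjusted p = 0.0846). EEF1A1 differed by -0.86 between RKO and H460 (adjusted p = 0.0324).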

How the results depend on the processing

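The called genes, GUSB in RKO and EEF1A1 in H460, were called with library size, RLE factors, DESeq2, both other filters, the joint fit, the replicate block and limma on RPKM, and A549 had 0 calls in all settings. With the adjusted p alone 5 genes passed in RKO and 3 in H460, and with a fold over 2 the count was 0 in both. Leaving out a library gave 0 to 2 calls in RKO (0 without normoxia replicate 1 or hypoxia replicate 2, 2 without hypoxia replicate 1) and 1 in H460. The count of genes whose effect differed over the 3 lines was 2 to 5 when a library was omitted (2 without RKO normoxia replicate 1 or any H460 library, 3 without RKO hypoxia replicate 2, A549 normoxia replicate 2 or A549 hypoxia replicate 1). Between RKO and A549 this count was 0 to 4 (0 without RKO normoxia replicate 1, and 1 without RKO hypoxia replicate 2, A549 normoxia replicate 2, A549 hypoxia replicate 1 or either H460 hypoxia library). Between A549 and H460 it was 0 to 1 (1 without either RKO hypoxia library or A549 hypoxia replicate 2), 2 with library size and 1 without a filter. The labels do not say whether same-numbered libraries were handled together, and their deviations correlated at 0.23, 0.29 and 0.08 in RKO, A549 and H460, so they were not treated as pairs. With the replicate block the count was 5 for RKO against A549, 5 for RKO against H460 and 2 for A549 against H460, and the calls per line stayed at 1, 0 and 1. The cause was not tested for any of these.

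For the single log2 fold changes, 198 settings that kept every library held direction and side of the threshold. A further 18 such settings changed sign, none of them of a called gene. Of the 96 settings that left out a library, 9 changed sign. With library size and limma on log2(RPKM + 0.1) and log2(RPKM + 1), the H460 values were -0.0537, -0.0493 and -0.0493 for B2M, -0.34, -0.33 and -0.33 for HPRT1, -0.21, -0.21 and -0.19 for TBP and -0.0904, -0.0896 and -0.0890 for YWHAZ, and those of PPIA in A549 were -0.0648, -0.0658 and -0.0657. ACTB in H460 was 0.0243 with RLE, 0.0243 with DESeq2 and 0.00787 in the joint fit. Without a library, the ranges that crossed 0 were -0.13 to 0.29 for EEF1A1 in RKO, -0.0706 to 0.42 for ACTB and -0.0468 to 0.0985 for PPIA in A549, and -0.0555 to 0.0147 for ACTB and -0.0349 to 0.0498 for HPRT1 in H460. The SD over 12 libraries moved by less than the replicate SD in all 24 settings.

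With 2 libraries a group, the standard errors of log2 fold changes over all genes had medians of 0.184, 0.223 and 0.114 for RKO, A549 and H460. A change had to be well above 1 standard error to pass the adjusted p. In A549 all 381 genes that passed the adjusted p with TMM also changed by more than 1.5-fold, so no smaller change passed there.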

Other observations

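Genes outside the usual reference lists varied less than any of the 8. Among 5070 genes with a mean of at least 50 TMM CPM, the 10 with the lowest SD of log2 CPM over the 12 libraries were NF2, TTC19, SLC4A7, HSD17B4, SMARCC2, SNX1, OCIAD1, MPST, IMMT and CLPX, from 0.09 for NF2 to 0.13 for CLPX. HPRT1 ranked 187 and PPIA 713 with TMM, and 649 and 407 with library size. NF2, which encodes the tumour suppressor merlin, spanned 1.24-fold from its lowest to its highest library, and its log2 changes with hypoxia were -0.04 ± 0.15, -0.01 ± 0.18 and -0.02 ± 0.09 in RKO, A549 and H460. These genes were picked for a low SD in these libraries, so their values are a description. The choice depended on the scaling, since with library size NF2 ranked 83 and OCIAD1 340, and IMMT, a protein of mitochondrial cristae, ranked 18. OCIAD1 was lower in H460 hypoxia (log2 fold change -0.34 ± 0.09, edgeR adjusted p = 0.00631) by less than 1.5-fold.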
